A study of Xenopus tropicalis with 2 samples.

Results

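The genes described here are neurog1, neurod1, neurod4 and nhlh1, which encode basic helix-loop-helix (bHLH) transcription factors of the proneural cascade. They were found by name in the gene table of the deposited count matrices, where each name occurred once, so that 4 of the 14374 listed genes were taken (identifiers Xetrov90007333m.g for neurog1, Xetrov90024171m.g for neurod1, Xetrov90006428m.g for neurod4 and Xetrov90022372m.g for nhlh1). The data were single-cell RNA-Seq of GFP-positive cells sorted from tails of Xenopus tropicalis tadpoles that carry a pax6:GFP transgene, in which a pax6 promoter drives GFP. The 24hpa group was tail tissue collected 24 hours after the posterior part of the tail was cut off at NF stage 41, 3 days after fertilization, and the uninjured group was tail tissue of tadpoles labelled with that stage and not amputated. Each group was 1 library of cells from pooled tails, so no test across samples could be made, no p-value was computed, and amputation, the additional day of age, the piece of tissue and the library cannot be told apart.

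Proneural bHLH factors bind DNA as heterodimers with E proteins and turn dividing neural precursors into neurons. Neurogenins act early, in progenitors, where they switch on the Notch ligands of the Delta family and the NeuroD factors. The NeuroD factors and nhlh1 follow as the cell leaves the cycle, while Notch signalling through Hes and Hey repressors, and the Id proteins, hold the cascade back in neighbouring cells. In the frog embryo, forced neurog1 or neurod1 converts ectoderm into neurons.

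The authors' tables held 1090 24hpa cells and 2617 uninjured cells, of which 295 and 780 were neural. The 24hpa library had 32798976 unique molecular identifiers (UMIs, 1 for each captured transcript) and the uninjured library 48622597, with a median of 8473 UMIs per neural cell at 24hpa and 7353 in uninjured tails. No neural cell barcode occurred in both libraries. Levels are a gene's UMIs divided by all UMIs of the same cells, in CPM (UMIs of the gene per 1000000 UMIs), with 95% Poisson bounds. Log2 ratios set 24hpa over uninjured CPM and carry 95% conditional bounds, and shares of cells with at least 1 UMI (positive cells) have Clopper-Pearson intervals. All intervals cover counting error only, and say nothing of the spread between tadpoles. The neural markers sox2, sox3, pax6, elavl3, elavl4 and tubb2b summed to 3464 CPM in 24hpa and 2816 CPM in uninjured neural cells, and to 39.4 and 79.1 CPM in the other cells. In neural cells only tubb2b (1819 and 890 CPM) and elavl3 (283 and 155 CPM) were higher at 24hpa. Lower there were sox2 (289 and 341), sox3 (131 and 338), pax6 (19.0 and 36.0) and elavl4 (924 and 1055 CPM). The authors chose the neural clusters by sox2 and elavl4 among other markers, which in part fixes the contrast with other cells.

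Neurog1, neurod1 and neurod4 were lower in 24hpa than in uninjured neural cells, and for nhlh1, the last in the cascade, no direction held. For those 3 genes both the UMIs and the share of positive cells were lower, while for nhlh1 the interval of the difference in positive cells held 0. The result for neurod4 rests on 38 UMIs at 24hpa. Its log2 ratio was −0.94 with the clusters weighted to their makeup in uninjured tails. At 24hpa the levels of all 4 genes were highest in the Differentiating Neuron cluster. Nhlh1 had more CPM there than in uninjured tails, with a log2 ratio of 0.55. That value rests on 31 cells at 24hpa, and the interval of the difference in positive cells held 0.

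Neurog1 (neurogenin-1), the gene at the head of the cascade, had 170 UMIs or 52.0 CPM (44.5 to 60.4) in 24hpa neural cells and 2066 UMIs or 307 CPM (294 to 321) in uninjured neural cells. The log2 ratio was −2.56 (−2.80 to −2.34), a level 5.91-fold higher in the uninjured library. It was positive in 42 of 295 24hpa cells (14.2%, 10.5 to 18.8) and in 405 of 780 uninjured cells (51.9%, 48.4 to 55.5), a difference of −37.7 percentage points (Newcombe interval −42.6 to −32.0). The intervals were far apart on both measures. Among the 8180 genes that reached 50 UMIs in the libraries together, 6.66% were called lower at 24hpa, which here means a log2 ratio of at least 1 in size with Poisson intervals that do not overlap. Neurog1 stood 100th from the lowest ratio, within the lowest 1.22%.

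Neurod1, a NeuroD factor that acts downstream of neurogenin, had 125 UMIs or 38.2 CPM (31.8 to 45.6) at 24hpa and 994 UMIs or 148 CPM (139 to 157) in uninjured tails. Its log2 ratio was −1.95 (−2.23 to −1.68), and 10.2% of 24hpa cells against 35.3% of uninjured cells were positive. Neurod4, the second NeuroD factor, had 38 UMIs or 11.6 CPM at 24hpa and 289 UMIs or 43.0 CPM in uninjured tails. Its log2 ratio was −1.89 (−2.41 to −1.39), and it was positive in 15 of the 24hpa cells (5.08%) and in 119 of the uninjured cells (15.3%). By the same call both were lower, and they ranked 174th and 186th from the lowest ratio. With the clusters weighted to their makeup in uninjured tails, the log2 ratio was −1.31 for neurod1 and −0.94 for neurod4, the last under the size set for a call.

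Nhlh1, a bHLH factor of newly formed neurons that the authors list among the markers of the Differentiating Neuron cluster, had 220 UMIs or 67.3 CPM (58.7 to 76.8) at 24hpa and 556 UMIs or 82.7 CPM (75.9 to 89.8) in uninjured tails. The log2 ratio was −0.30 (−0.53 to −0.07), and the direction of this small difference depended on how cells were weighted, since the mean of CPM per cell gave 0.24. The share of positive cells was 28.8% at 24hpa and 24.1% in uninjured tails, a difference of 4.71 points (−1.07 to 10.8). No difference of nhlh1 over all neural cells could therefore be given a direction.

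The lower shares stood in the deeper cells. When every cell was thinned to 2600 UMIs, the expected share of positive cells was 7.56% at 24hpa and 36.1% in uninjured tails for neurog1, 5.55% and 21.6% for neurod1, 2.60% and 6.87% for neurod4, and 13.6% and 12.7% for nhlh1. With fewer positive cells, single cells weighed more at 24hpa. The 10 cells with the most neurog1 UMIs held 63.5% of all neurog1 UMIs at 24hpa and 12.1% in uninjured tails, and for neurod4 they held 81.6% and 33.2%, where the 24hpa library had 42 and 15 positive cells for these genes. In a single cell neurog1 reached 21 UMIs at 24hpa and 50 in uninjured tails, in both libraries in a progenitor.

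Outside the neural table the 4 genes were scarce over all cells together, though not in every cluster. The authors used neurog1 and neurod1 among the markers that set which clusters were neural. The levels outside the table and the split of UMIs are therefore a description, in part fixed by that choice. Neurog1 had 2.73 CPM in the 795 other 24hpa cells and 5.04 CPM in the 1837 other uninjured cells, and the share of positive cells was 1.26% and 4.03%, at median depths of 12216 and 8933 UMIs. Of the 35 neurog1 UMIs in the other 24hpa cells, 20 were in 1 cell of the cluster named Other 1. In uninjured cells of the Bipotent Progenitor cluster neurog1 had 31.0 CPM. In goblet cells, secretory cells of the skin, neurog1 was found in 0 of 21 24hpa cells, which allows a share of up to 14.3% (3 counts of the total), and in 0 of 157 uninjured cells, which allows up to 1.91%. These limits are for cells with a UMI, not for cells that express the gene. For the other 3 genes the share in the cells outside the neural table was between 0.377% and 0.755% at 24hpa and between 0.544% and 2.72% in uninjured tails. The neural cells held 82.9% to 97.3% of the UMIs of each gene among all called cells. Free RNA, measured in barcodes with at most 100 UMIs, carried neurog1 at 28.1 CPM in the 24hpa library and 57.2 CPM in the uninjured library, and nhlh1 at 18.7 and 19.1 CPM.

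Levels of genes listed as markers of other tissues also differed between the neural cells of the libraries. The 6 matched muscle genes, of 7 listed, summed to 813 CPM in 24hpa and 2281 CPM in uninjured neural cells, the 2 matched notochord genes, of 4 listed, to 77.1 and 345 CPM, and the 2 matched endothelial genes to 0 and 0.446 CPM. The 3 matched genes of epidermis and goblet cells, of 4 listed, summed to 4459 CPM in 24hpa and 4060 CPM in uninjured neural cells. Most of this came from krt18 (2801 and 2240 CPM) and krt8 (1657 and 1763 CPM). Itln1, the third gene, had 0.918 and 57.8 CPM, against 108 and 1159 CPM in the cells outside the neural table. In progenitors the 3 genes summed to 10178 and 7412 CPM and in differentiating neurons to 902 and 2499 CPM. In the cells outside the neural table they summed to 4627 and 4612 CPM, and their part in the results was not tested. If all muscle and globin RNA in neural cells were free RNA, it would make up 2.74% of the UMIs of 24hpa and 9.40% of those of uninjured neural cells. Subtraction of free RNA at these shares gave a log2 ratio of neurog1 of −2.56, the value without it. Markers of sensory neurons or lateral line, of which 7 of 14 were matched, summed to 367 CPM in 24hpa and 466 CPM in uninjured neural cells, and their part in the results was not tested.

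The genes were next compared by cluster. The authors clustered the cells by expression without setting these genes aside, used neurog1 and neurod1 among the markers that defined the neural clusters, and so levels between clusters are a description. Clusters with at least 20 cells in both libraries were compared between libraries, which left out Floor Plate (1 and 23 cells) and Dopaminergic Neurons (8 and 49 cells).

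**Figure D1:**
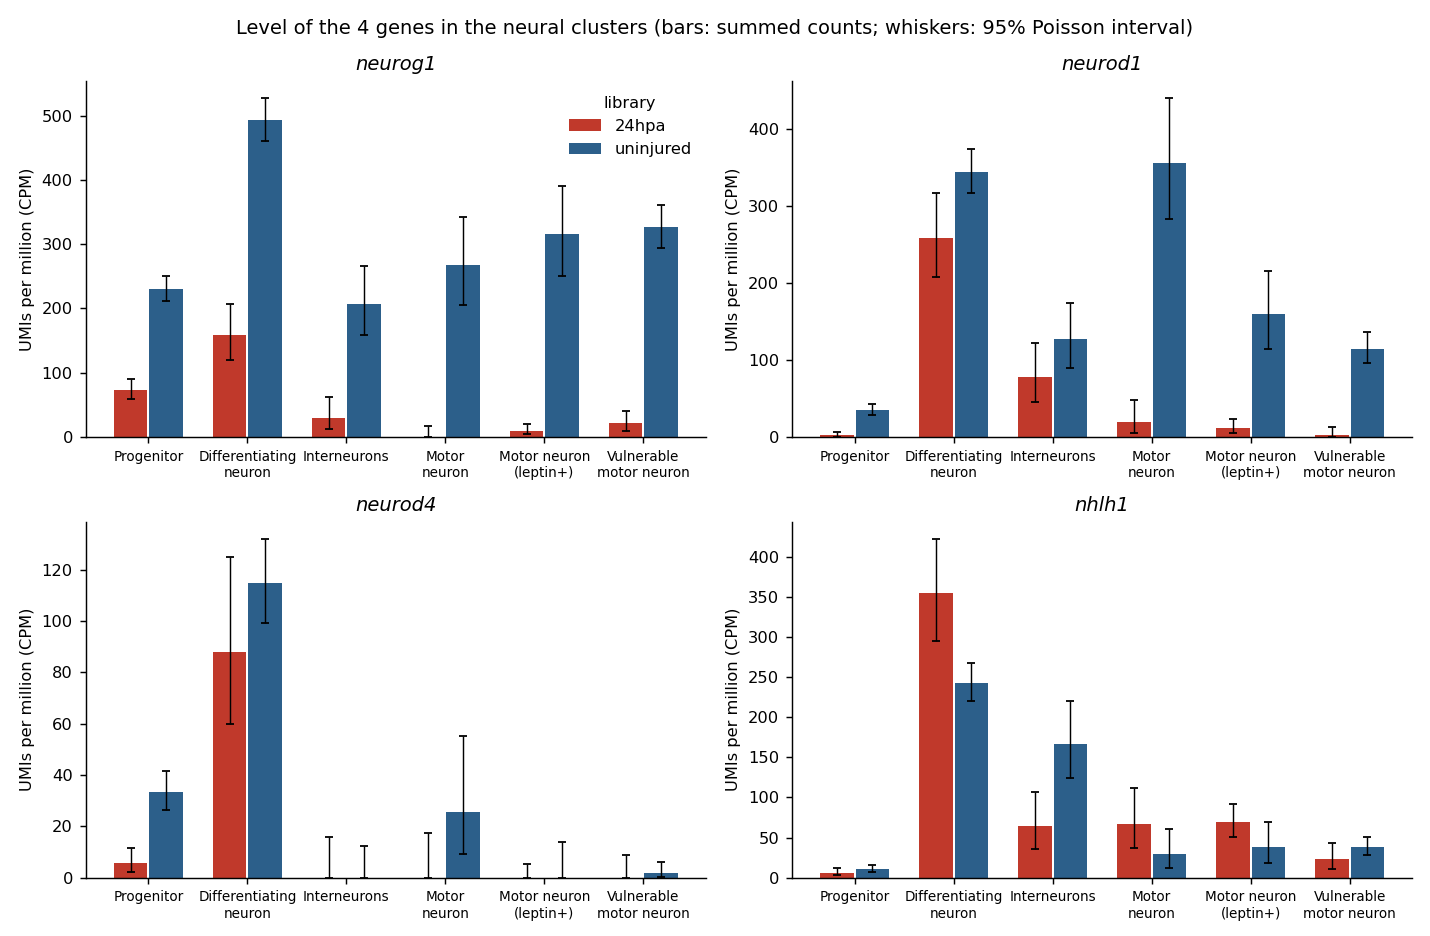
Level of each gene in CPM (linear axis from 0) in the 6 neural clusters with at least 20 cells in both libraries, 24hpa left of uninjured. Bars are summed counts of 1 library each and whiskers are 95% Poisson intervals, which cover counting error only. Neurog1 was lower at 24hpa in every cluster shown. Nhlh1 had more CPM at 24hpa in the Differentiating Neuron cluster, with a log2 ratio of 0.55 that is under the size set for a call.

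In the Spinal Cord Progenitor cluster, which holds the dividing precursors, neurog1 had 73.4 CPM in 71 24hpa cells and 230 CPM in 273 uninjured cells, with a log2 ratio of −1.65 (−1.98 to −1.33). Neurog1 was positive in 19.7% of 24hpa and 33.3% of uninjured progenitors, even though the 24hpa progenitors had a median of 14090 UMIs against 7739. The NeuroD genes were lower there as well: neurod1 had 3 UMIs in 2 cells at 24hpa and 84 UMIs in 33 cells in uninjured tails, a log2 ratio of −3.86 (−6.17 to −2.26). Neurod4 had 7 and 80 UMIs, a log2 ratio of −2.57 (−3.93 to −1.46). Nhlh1 was scarce in progenitors of both libraries, with 6.46 and 10.9 CPM and an interval of the log2 ratio that held 0 (−2.11 to 0.43). Among all genes 6.71% were called lower and 4.28% higher in progenitors at 24hpa, and neurog1, neurod1 and neurod4 were among them.

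In the Differentiating Neuron cluster, all 4 genes reached their highest level in the 24hpa library, and in uninjured tails all but neurod1 did, which had 356 CPM (284 to 441) in the Motor Neuron cluster and an overlapping interval here. Neurog1 had 159 CPM (120 to 206) in 31 24hpa cells and 493 CPM (460 to 527) in 155 uninjured cells, a log2 ratio of −1.63 (−2.05 to −1.24). Neurod1 had 258 and 345 CPM, a log2 ratio of −0.42 (−0.75 to −0.10) that was 0.052 as the mean of CPM per cell, and neurod4 had 87.9 and 115 CPM, a log2 ratio of −0.38 (−0.98 to 0.17) that was 0.082 as that mean. Of these genes the head of the cascade alone was called lower in this cluster, where 6.88% of all genes were called lower and 4.77% higher.

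Nhlh1 went the other way in these cells. It had 125 UMIs or 355 CPM (295 to 422) at 24hpa and 412 UMIs or 243 CPM (220 to 267) in uninjured tails, a log2 ratio of 0.55 (0.25 to 0.84), which is under the size set for a call. The share of positive cells was 71.0% at 24hpa and 69.0% in uninjured tails, a difference of 1.94 points (−16.9 to 17.0), while a single cell reached 27 UMIs at 24hpa and 16 in uninjured tails. In this cluster the share positive for neurog1 was 41.9% at 24hpa and 83.2% in uninjured tails, for neurod1 41.9% and 76.8%, and for neurod4 38.7% and 46.5%.

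In the neuron clusters beyond this step the contrast between libraries was wider. Over the Interneurons, Motor Neuron, Motor Neuron (leptin+), Vulnerable Motor Neuron and Dopaminergic Neurons clusters, neurog1 had 23 UMIs in 192 24hpa cells and 666 UMIs in 329 uninjured cells, or 14.0 and 277 CPM. The log2 ratio was −4.31 (−4.97 to −3.71), and 7.81% of 24hpa against 55.3% of uninjured cells were positive. In uninjured tails neurog1 RNA was thus found in most of the 329 cells of these clusters, at a level above that in free RNA (57.2 CPM). By cluster its uninjured share lay between 32.7% in Dopaminergic Neurons and 66.7% in Motor Neuron (leptin+), and its level between 179 CPM in Dopaminergic Neurons and 326 CPM in Vulnerable Motor Neuron, on both sides of the 230 CPM in progenitors.

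In the Vulnerable Motor Neuron cluster neurog1 was positive in 5 of 56 24hpa cells and in 109 of 164 uninjured cells, with 21.2 and 326 CPM and a log2 ratio of −3.94 (−5.08 to −3.00). In the Motor Neuron cluster it had 0 UMIs in 33 24hpa cells and 63 UMIs in 52 uninjured cells. With a floor of 3 UMIs over the cluster in place of 0, it was 18.7-fold lower at 24hpa. The counting interval of the log2 ratio at that floor was −6.54 to −2.61. In the Motor Neuron (leptin+) cluster it was positive in 8.82% of 68 24hpa cells and 66.7% of 27 uninjured cells, with a log2 ratio of −4.96 (−6.32 to −3.85). Interneurons had the smallest difference of these clusters, −2.78 (−4.15 to −1.65). In all 4 clusters neurog1 was called lower, where 3.94% of all genes were called lower in Vulnerable Motor Neuron, 6.56% in Motor Neuron, 5.97% in Motor Neuron (leptin+) and 3.18% in Interneurons. The shares of all genes called higher were 8.47%, 8.16%, 16.4% and 6.23% in the same clusters.

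Neurod1 followed neurog1 in the motor neuron clusters but not in interneurons. It had 1 UMI in Vulnerable Motor Neuron cells at 24hpa and 132 UMIs in uninjured tails, 4 and 84 UMIs in Motor Neuron cells, and 8 and 42 UMIs in Motor Neuron (leptin+) cells, with log2 ratios of −5.60, −4.22 and −3.78. In interneurons it had 77.5 CPM at 24hpa and 127 CPM in uninjured tails, and the interval of the log2 ratio held 0 (−1.61 to 0.13). Neurod4 had no UMI in interneurons or Motor Neuron (leptin+) cells of either library, and over the 5 neuron clusters it had 0 UMIs at 24hpa and 14 in uninjured tails. Its RNA was thus concentrated in 2 clusters, with 18.4% of its UMIs in progenitors and 81.6% in differentiating neurons at 24hpa, and 27.7% and 67.5% in uninjured tails.

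Nhlh1 had no common direction among the neuron clusters. It was lower at 24hpa in interneurons, with 64.6 and 167 CPM and a log2 ratio of −1.37 (−2.31 to −0.52), although the interval of the difference in positive cells held 0 (−41.0 to 4.82 points). In the Motor Neuron and Motor Neuron (leptin+) clusters the log2 ratios were 1.17 (−0.24 to 2.72) and 0.87 (−0.13 to 2.02), with intervals that held 0, and in Vulnerable Motor Neuron cells it was −0.70 (−1.85 to 0.32). The share of nhlh1-positive Motor Neuron cells was 36.4% at 24hpa and 9.62% in uninjured tails, a difference of 26.7 points (8.81 to 44.6), but the cells had a median of 6174 and 4000.5 UMIs, and the difference after thinning to 2600 UMIs was 8.73 points (−4.93 to 25.3).

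**Figure D2:**
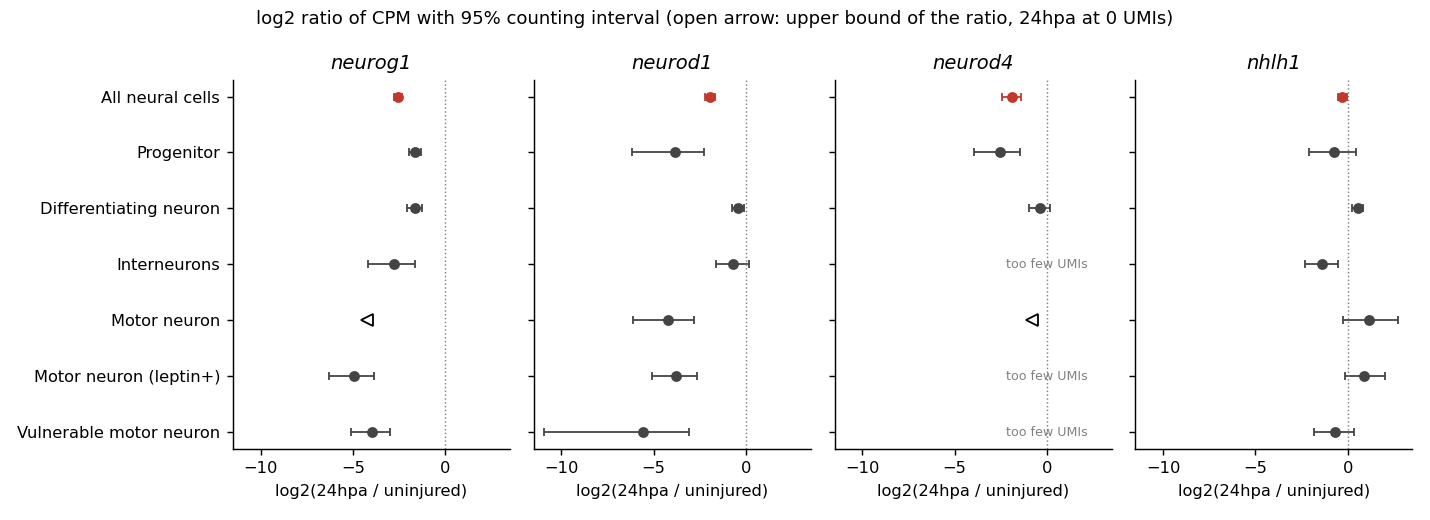
Log2 ratio of CPM, 24hpa over uninjured, for each gene in all neural cells (top, red) and in the 6 clusters, with 95% counting intervals; the dotted line marks no difference. The open arrows of neurog1 and neurod4 in the Motor Neuron cluster are ratios with a floor of 3 UMIs in place of 0 at 24hpa (−4.22 for neurog1), drawn without counting error. The points of nhlh1 lie on both sides of 0.

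Co-detection was then counted in single cells. In uninjured tails, 107 of the 119 neurod4-positive cells (89.9%, 83.0 to 94.7) also had neurog1, against 45.1% of the 661 cells without neurod4. Of the 275 neurod1-positive cells, 78.2% had neurog1, and 80.9% of the 188 nhlh1-positive cells did. In the opposite direction the shares were lower, since 26.4% of the 405 neurog1-positive cells had neurod4, 53.1% had neurod1 and 37.5% had nhlh1. Neurog1 was thus found in most cells with a later gene. That the opposite shares were lower follows from the totals, as neurog1 had more positive cells than each later gene, and shows no order.

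At 24hpa neurog1 was found in smaller shares of the cells with neurod1 or nhlh1. Its share among all neural cells was lower as well (a difference of −37.7 points), which by itself lowers these shares. They therefore do not show that the genes were paired less often than their totals give. Of the 30 neurod1-positive cells 36.7% (19.9 to 56.1) had neurog1. Of the 15 neurod4-positive cells, 11 had neurog1 (73.3%, 44.9 to 92.2) and 80.0% had nhlh1. Of the 85 nhlh1-positive cells, 16 had neurog1 (18.8%, 11.2 to 28.8) and 16 had neurod1. Nhlh1 was the only gene of the 4 in 58 of those 85 cells at 24hpa and in 16 of the 188 nhlh1-positive cells in uninjured tails. The deeper cells of the 24hpa library would by depth alone give more co-detection. After thinning to 2600 UMIs, the expected share of nhlh1-positive cells with neurog1 was 12.3% at 24hpa and 60.8% in uninjured tails.

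**Figure D3:**
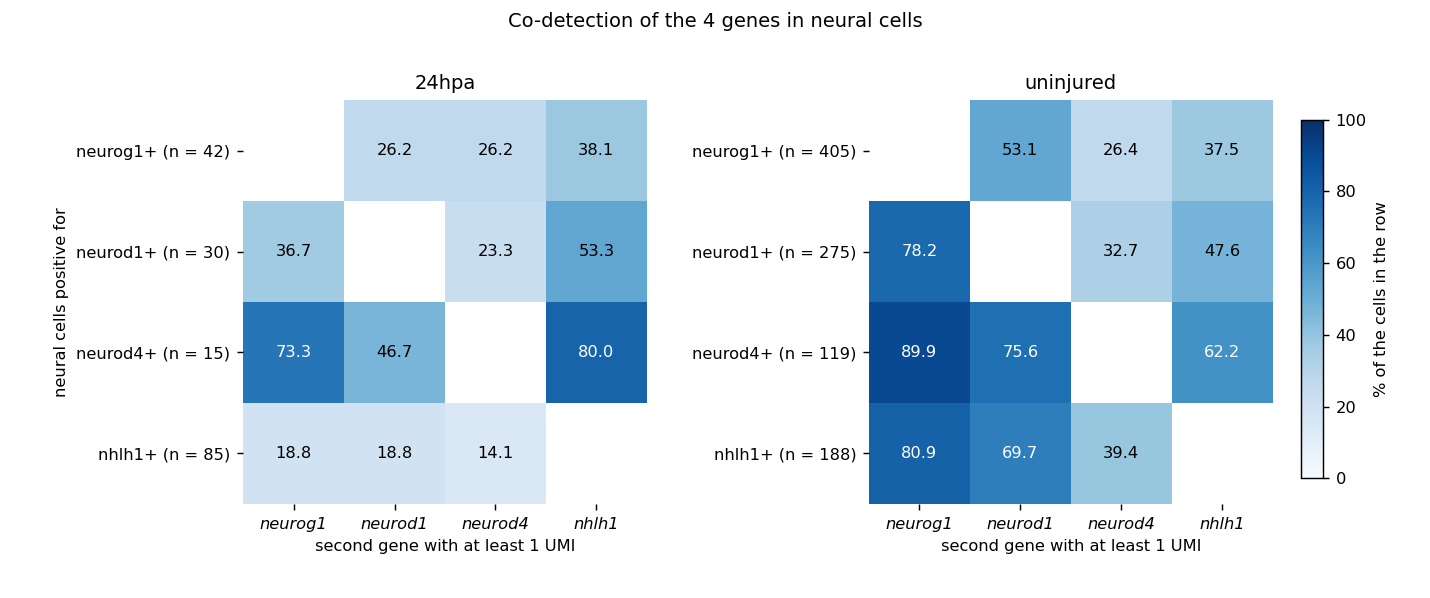
Share of the neural cells positive for the gene of the row that also had at least 1 UMI of the gene of the column, in percent, in the 24hpa library (left) and the uninjured library (right), with the number of cells in each row. Nhlh1-positive cells had neurog1 in 18.8% at 24hpa and in 80.9% in uninjured tails.

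At least 2 of the 4 genes were found together in 32 of the 295 24hpa cells (10.8%, 7.54 to 15.0) and in 294 of the 780 uninjured cells (37.7%, 34.3 to 41.2), and after thinning in 5.01% and 20.4%. All 4 genes were found in 5 cells at 24hpa, each of them a differentiating neuron, and in 61 cells in uninjured tails, of which 49 were differentiating neurons and 9 progenitors. In progenitors at least 2 genes were found in 5.63% of 24hpa and 17.9% of uninjured cells, and in differentiating neurons in 54.8% and 84.5%. In the 5 neuron clusters together the shares were 5.73% and 33.7%. No cell of these clusters had more than 2 of the genes at 24hpa, whereas 20 uninjured cells had 3 and 3 had all 4.

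**Figure D4:**
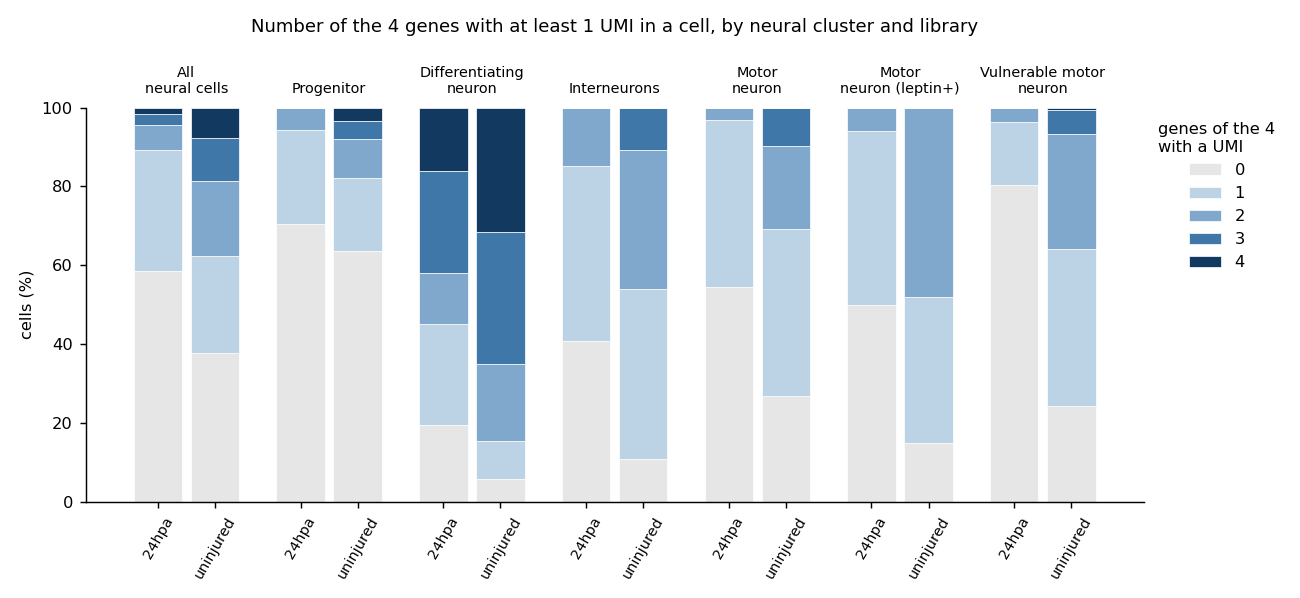
Share of cells in which 0 to 4 of the genes had at least 1 UMI, in percent of the cells of each cluster and library, with 24hpa left of uninjured. In the Differentiating Neuron cluster, at least 2 genes were found in 54.8% of the 24hpa cells and 84.5% of the uninjured cells.

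Elavl3 was higher in neurog1-positive than in neurog1-negative progenitors of both libraries, and tubb2b was clearly higher in uninjured tails only. In uninjured progenitors elavl3, an RNA-binding protein of young neurons, had 128 CPM (106 to 152) in the 91 neurog1-positive cells and 29.3 CPM (21.1 to 39.6) in the 182 negative cells, and tubb2b, a neuronal tubulin, had 336 and 120 CPM. In 24hpa progenitors elavl3 had 72.5 CPM (46.0 to 109) in the 14 positive cells and 22.8 CPM (14.1 to 34.8) in the 57 negative cells, whereas tubb2b had 338 and 328 CPM. Pax6, the gene of the sorted reporter, had 101 CPM (82.3 to 124) in neurog1-positive and 62.7 CPM (50.4 to 77.1) in negative uninjured progenitors. Sox2, a factor of the undifferentiated neural precursor, was lower in the positive cells, at 518 CPM against 613 CPM.

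By the authors' phase calls, which rest on a score of cell cycle genes, most progenitors were outside G1. None of the 39 neurod4-positive uninjured progenitors was called G1 and 43.6% (27.8 to 60.4) were called G2M. Of the 234 neurod4-negative progenitors 8.55% and 24.8% were, and the intervals overlap for G1 and for G2M alike. In all uninjured neural cells, pcna, a replication clamp protein, had 692 CPM in the 19 cells with neurog1 and neurod4 alone and 170 CPM in the 79 cells with neurog1 and neurod1 alone, and elavl4, an RNA-binding protein of neurons, had 512 and 1807 CPM. Sox2 had 454 CPM in those 19 cells and 172 CPM in those 79. Cells that also had nhlh1, or lacked neurog1, are not in this comparison. The cells of both patterns were taken over all neural clusters. In uninjured tails progenitors held 27.7% of the neurod4 UMIs and 8.45% of the neurod1 UMIs. The part of cluster membership in these differences was not tested, and they show no order of the genes. In 24hpa tails these patterns held 2 cells each, too few to describe.

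Genes whose level was most like that of each member were ranked by Pearson's r of log2(CPM + 10) over 20 cell groups, among 8260 genes. The groups were the 8 neural clusters and the combined-table clusters of cells outside the neural table. Each had at least 20 cells, with both libraries together. The cell groups share the libraries and differ mainly between neural and other cells, so these are descriptions. The 3 leading genes were grik2, a kainate receptor subunit (0.97), myt1, a zinc finger factor induced by neurogenin in the frog (0.95), and LOC447963 (0.95) for neurog1. For neurod1 they were LOC447963 (0.95), tmem178.2 (0.95) and myt1 (0.94). For neurod4 they were dlc, a Delta ligand of Notch (0.90), prdm8, a transcriptional repressor (0.87), and the unnamed gene Xetrov90021076m.g (0.83). For nhlh1 they were onecut1, a homeodomain factor of early neurons (0.93), tmem178.2 (0.91) and dpysl4, a protein of growing axons (0.91). Among the members, neurog1 and neurod1 were most alike over these groups (0.92), and neurod4 was less like the other 3 (0.58 to 0.65). That order rests on the groups outside the nervous system, since over the 8 neural clusters alone r was 0.53 for neurog1 and neurod1, 0.84 for neurod1 and nhlh1, and 0.75 for neurog1 and neurod4.

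The regulators around the cascade were followed in a list of 93 genes, of which 58 were matched by name and 50 had at least 50 UMIs in neural cells. Of these, 18 were called lower at 24hpa and 3 higher, where 6.66% and 6.97% of all genes were. On another scaling by the trimmed mean of M values (TMM), which takes 0.11 from every log2 ratio in neural cells, 25 were lower and 2 higher. The shares of all genes called on that scale were not counted, so these 2 counts have no background beside them. Over all genes the median log2 ratio was 0.10 before and −0.0094 after that scaling. The values of the list are over all neural cells and were not weighted to the uninjured makeup of clusters. Spinal Cord Progenitor cells were 71 of 295 at 24hpa and 273 of 780 in uninjured tails. Differentiating Neuron cells were 31 and 155, Dopaminergic Neurons 8 and 49, and Motor Neuron (leptin+) cells 68 and 27. The part of that makeup in the values was not tested.

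Among other bHLH genes of the list, the E proteins aside, 1 of 4 was lower and none higher, with a median log2 ratio of −0.84. The lower gene was tal2, a bHLH factor of inhibitory neurons (−2.21, with 75.0 and 348 CPM). Tal1 had a log2 ratio of −0.78, neurog3, another neurogenin, of −0.90 (−1.71 to −0.16) and bhlhe22 of 0.38 (−0.22 to 0.96). Neurog2, the nearest relative of neurog1, had 1 UMI at 24hpa and 28 in uninjured tails and was too scarce to be counted. None of the 3 E proteins, the partners with which these factors bind DNA, was called, with log2 ratios of −0.25 for tcf3, 0.79 for tcf4 and −0.39 for tcf12.

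Of the 12 genes listed as inhibitors, hes6.1 and hes6.2 included, 7 were lower and none higher, with a median of −1.11. The lower Hes and Hey genes were hey1 (−2.67), hes3.3 (−2.45), hes4 (−2.17), hes2 (−1.42), hes5.1 (−1.19) and hes5.2 (−1.16). Hes1 (0.15) was not called. The Id proteins, which take up E proteins, had 188 and 389 CPM for id4 (−1.05), 121 and 227 CPM for id3 (−0.91) and 84.7 and 166 CPM for id2 (−0.97), of which id4 was called. Hes6.1 and hes6.2, of a Hes family branch that promotes neurogenesis in the frog, had log2 ratios of −0.59 and −0.49 and were not called. The count and median above are therefore not of repressors alone. Of 6 Delta and Notch genes, 3 were lower and none higher: the receptors notch1 (−1.79, with 37.0 and 128 CPM) and notch2 (−1.43), and the ligand dlc (−1.67, with 9.79 and 31.2 CPM). Lfng, which modifies Notch, had −0.95 (−1.26 to −0.64).

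Among 18 targets and early neuron genes, 5 were lower and 3 higher, with a median of −0.20. The lower genes were myt1, btg2, rcor2, cbfa2t2 and cbfa2t3, of which btg2 is an antiproliferative gene of neuron-producing divisions and the others are nuclear cofactors or factors. Higher were stmn2, a microtubule regulator of growing axons (1.30, with 4184 and 1704 CPM), stmn4 (2.79, with 111 and 33 UMIs) and tubb2b (1.03, with 1819 and 890 CPM), of which tubb2b was not higher on the TMM scale. The neuronal tubulin tubb3 (0.71) and elavl4 (−0.19) were not called. Of the 7 progenitor genes 2 were lower, slc1a3, a glutamate transporter of neural precursors (−1.23), and sox3 (−1.37), and sox2 (−0.24), msi1 (−0.58) and fabp7 (−0.57) were not called. Of the genes named from the list, neurog2, stmn4, sox3, btg2, rcor2, cbfa2t2, cbfa2t3 and myt1 were chosen after their values were seen. So were hey1, hes1, hes2, hes3.3, hes4, hes5.1, hes5.2 and hes6.1, and the others were chosen by their UMI totals.

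**Figure D5:**
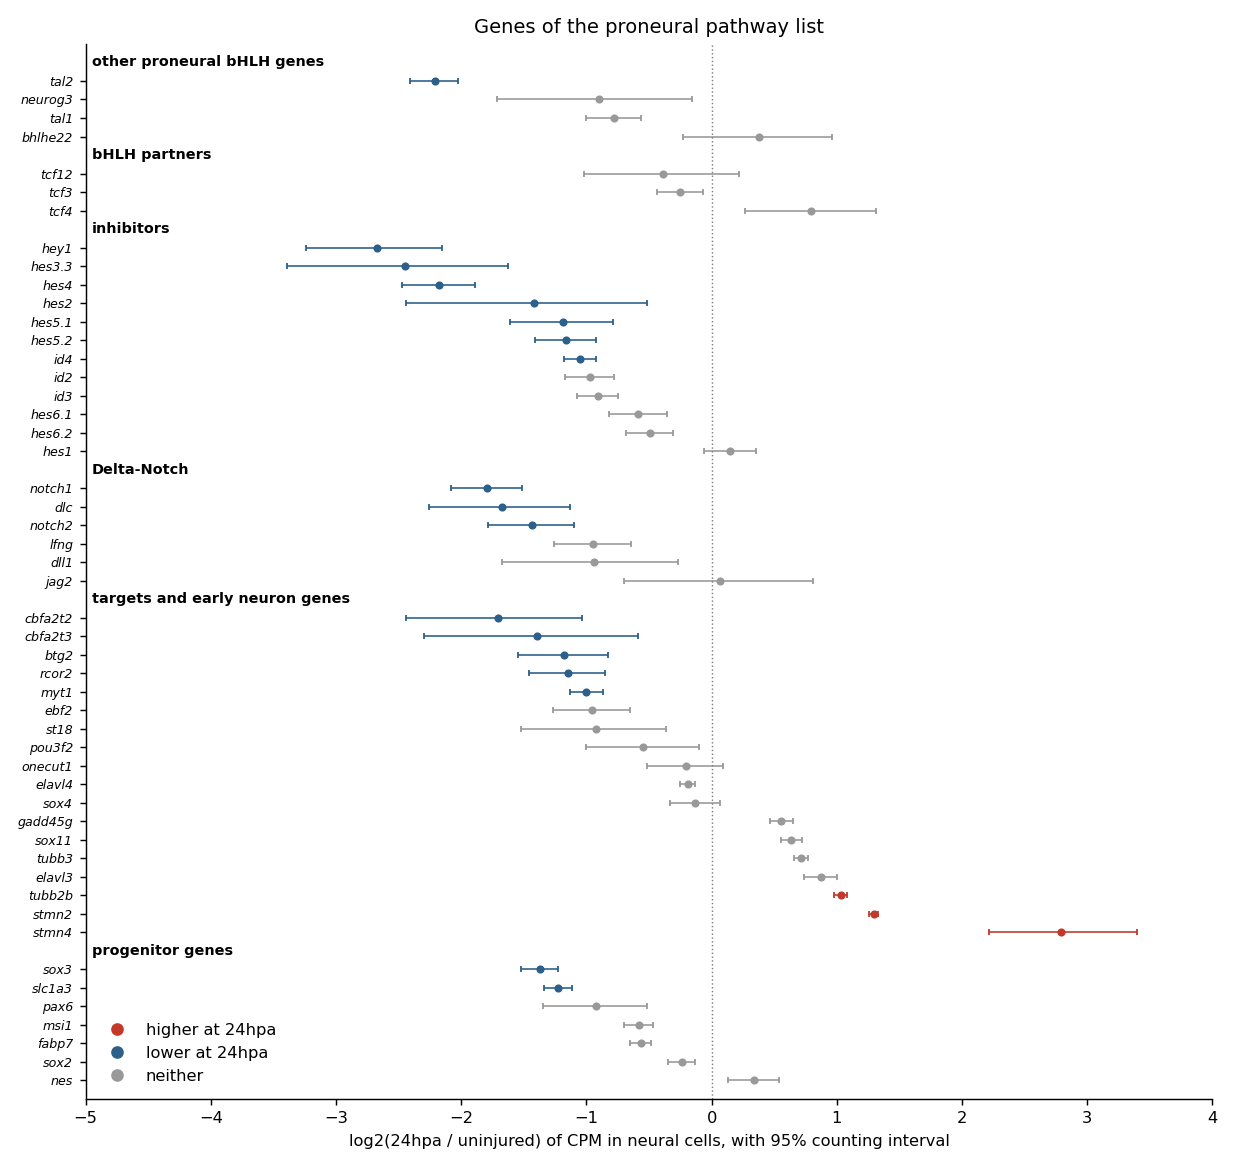
Log2 ratio of CPM in neural cells, 24hpa over uninjured, with 95% counting intervals, for the 50 genes of the list with at least 50 UMIs, grouped by role. Red marks the 3 genes called higher at 24hpa, blue the 18 called lower, and grey the rest.

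A small number of cells outside the neural table had UMIs of at least 2 of the 4 genes. Of the 2632 cells outside that table, 156 had a UMI of any of the 4 genes and 18 of at least 2, and 13 of those 18 had elavl3 or elavl4. The share of all 2632 cells with elavl3 or elavl4 was not counted, so the 13 show no enrichment. Counts were low in some of the 18, as in an uninjured Bipotent Progenitor cell with 1 UMI each of neurog1, neurod1 and elavl4. In a 24hpa cell of the cluster named Other 1, neurog1 had 20 UMIs, neurod1 17 and neurod4 4, with none of nhlh1. An uninjured cell of the Satellite Cells/Differentiating Myotome cluster had 3 UMIs of neurog1, 10 of neurod1, 10 of neurod4 and 4 of nhlh1. Whether these were single neural cells or 2 cells in a droplet was not tested, nor was the part of free RNA in the 18 cells.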

How the data were processed

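Cells were captured with droplet chemistry (10x), and reads were turned into UMI counts by the authors with Cell Ranger 2.0.2 and clustered with Seurat 3.0, as the submitters' notes and the study's methods name them. The deposited count matrices hold unnormalised UMI counts of 14374 genes, of which 12993 carry a name. The authors' tables give each cell's cluster and phase call, and 27 other columns of per-cell values were not used. The phase calls rest on cell cycle scores that the authors deposited on their own scale. Summed counts per barcode differed from the deposited UMI totals by at most 157.

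UMIs were summed over the cells of each library, divided by all their UMIs, and compared with exact counting intervals (Python 3.11.15, scipy 1.17.1). With 1 library per group no test was run. A gene was called at a log2 ratio of at least 1 in size with intervals apart and at least 50 UMIs over both libraries. Shares were recomputed as expectations at 2600 and 5000 UMIs per cell. Named genes were the 4 members, up to 4 genes of each list with the most UMIs in neural cells, and the 3 genes most like each member. An item of the pathway list is not reported here and is left out of its counts. Members, lists and rules were chosen with earlier results of these data known. Scrublet (scanpy 1.11.5) marked 0.367% of 24hpa and 0.306% of uninjured cells, and no cell was removed. Alternatives were TMM scaling (edgeR 4.0.16), the mean of CPM per cell, thinning, weighting of clusters, subtraction of free RNA, other filters, and, chosen after seeing the data, omission of the cells with the highest Scrublet scores. The scripts were tested on simulated data.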

Additional observations from a re-analysis of the deposited data

Results flagged for a closer look

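The log2 ratios of nhlh1 had opposite signs in 2 neural clusters. Its log2 ratio of 24hpa over uninjured CPM was 0.55 (0.25 to 0.84) in the Differentiating Neuron cluster and −1.37 (−2.31 to −0.52) in Interneurons. The counting intervals of the ratios lie on different sides of 0, but the first is under the size set for a call, the differences in positive cells had intervals that held 0 (−16.9 to 17.0 and −41.0 to 4.82 points), and with 1 library per group the difference between the clusters was not tested.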

How the results depend on the processing

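Neurog1, neurod1 and neurod4 stayed lower in 24hpa neural cells under every alternative run, with log2 ratios of −2.67 to −2.23, −2.33 to −1.31 and −1.99 to −0.94. Nhlh1 ranged from −0.40 to 0.28, and its direction turned to 0.24 by the mean CPM of single cells and to 0.28 with clusters weighted to the uninjured makeup. That weighting gave −2.23 for neurog1, −1.31 for neurod1, −0.94 for neurod4 and a share difference of −6.09 points for neurod4. The mean of CPM per cell gave −1.55 for neurod1, −1.28 for neurod4 and, in the Differentiating Neuron cluster, 0.052 for neurod1 and 0.082 for neurod4, and thinning gives the same ratios by construction. Neurog1 was −2.28 without the Motor Neuron (leptin+) cluster, and neurod1 was −1.66 without the 5% of cells with most UMIs and −2.33 without the cells with the highest Scrublet scores, an alternative chosen after seeing the data. Share differences at 2600 UMIs were −28.5 points for neurog1, −16.0 for neurod1 and −4.27 for neurod4, at 5000 UMIs −19.7 for neurod1, and counting only cells with at least 2 UMIs −29.9 points for neurog1, −16.7 for neurod1 and −3.24 for neurod4, whose interval then held 0 (−5.91 to 0.09). The share of uninjured neurod4-positive cells with neurog1 was 74.0% at 2600 UMIs. The cause of these shifts was not tested. Of 133 alternatives for ratios within a cluster, thinning not counted, 131 kept their direction. The others were those of neurod1 and neurod4 in the Differentiating Neuron cluster by the mean of CPM per cell. Several of the 133 left the cells of a cluster unchanged, so that the direction could not turn. Scrublet, for example, marked 2 neural cells in each library. The pathway list had 20 to 25 genes lower, and the shares of all genes called under these alternatives were not counted.

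No paired analysis was possible because each group was 1 library, and for the same reason leaving out a replicate was not done. Depth limits neurod4 most, with 38 UMIs in 24hpa neural cells.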

Other observations

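In the combined table the Bipotent Progenitor cluster, which lies outside the neural table, had neurog1 at 4.38 CPM in 36 24hpa cells and at 31.0 CPM in 87 uninjured cells, where 2.78% and 16.1% of cells were positive. The interval of the uninjured level was 18.1 to 49.6 CPM, and that of free RNA in the same library 42.6 to 75.2 CPM. The second is the level in free RNA itself, and the share of free RNA in these cells was not estimated. The origin of these UMIs was therefore not tested. An uninjured cell of the Dermomyotome cluster had 9 UMIs of neurog1, 5 of neurod1, 5 of neurod4 and 11 of nhlh1.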
